A study of Mus musculus with 18 samples.

Results

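Xcl1, Ccl1, Ccl3, Ccl4, Ccl5 and Ccl20 are chemokine ligand genes measured here in mouse regulatory T (Treg) cells that overexpressed or lacked microRNAs of the miR-23 cluster. They are 6 of 23949 genes in the deposited table, taken by symbol, and all 6 were among the 11520 genes with at least 1 RPKM (a read count divided by transcript length and by library depth) in at least 3 libraries, which were the genes tested. The 6 genes were chosen by levels measured in these libraries: earlier results had named Xcl1, Ccl1, Ccl3 and Ccl5 as high in miR-24 Tg cells and Ccl20 as high in miR-27 Tg cells. The levels in these 2 genotypes are therefore given as a description, without p-values. Those results included comparisons with WT, so the WT libraries also took part in the choice, which can favour genes low in WT. This can favour a rise in every comparison with WT below. Of the comparisons here, only cluster Tg against DKO compares neither WT nor these 2 genotypes. Ccl3 passed the filter only through the 4 overexpressing genotypes, since no DKO or WT library reached 1 RPKM, so its place among the tested genes already required a difference.

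RNA came from Treg cells sorted as CD4-positive cells with high CD25 from C57BL/6 mice, with 3 libraries for each of 6 genotypes, 18 in all. In miR-23 Tg, miR-24 Tg and miR-27 Tg mice, T cells overexpressed 1 microRNA family of the miR-23 cluster. In cluster Tg mice they overexpressed the entire cluster, and in DKO mice both miR-23a/b clusters were deleted in T cells. WT mice were the control, and the label of the WT samples reads WT Tg, so whether these mice carried Cre or a transgene is not settled by the labels. The series title names CD4cre, a Cre driven by a promoter active in the whole T cell lineage, so the alleles acted in conventional T cells as well as in Treg cells. The labels do not say whether libraries came from separate animals, and p-values measure the spread between these libraries.

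Chemokines are small secreted proteins that bind G protein-coupled receptors and direct the movement of leukocytes. Activated T cells make several of them, and Treg cells are known to use them to draw other leukocytes into contact. XCL1 binds XCR1 on cross-presenting dendritic cells, CCL1 binds CCR8, CCL5 binds CCR1 and CCR3, CCL3 binds CCR1, and CCL20 binds CCR6. NK cells, CD8 T cells and gamma delta T cells also make XCL1, CCL3, CCL4 and CCL5, myeloid cells make CCL3 and CCL4, and Th17 cells are known for CCL20.

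The overexpressed microRNAs bind targets mainly through the seed, bases 2 to 8, which is in capitals in the mature sequences below, taken from RefSeq (GRCm38.p6).
mmu-miR-23a-3p: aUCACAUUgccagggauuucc
mmu-miR-24-3p: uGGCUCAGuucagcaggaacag
mmu-miR-27a-3p: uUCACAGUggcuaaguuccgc
These sequences show that miR-23 and miR-27 share a run of seed bases while miR-24 differs. Matches to AATGTGA (miR-23), CTGAGCC (miR-24) and ACTGTGA (miR-27) were looked for in the annotated 3′ UTR of each gene (GENCODE M21, GRCm38), which are 141 (Xcl1), 285 (Ccl1), 409 (Ccl3), 302 (Ccl4), 199 (Ccl5) and 1050 (Ccl20) bases long. The single match among the 6 genes was a miR-27 match in Ccl4, at bases 251 to 257 of its 3′ UTR, in capitals here.
Ccl4 site: ttgtggatatgACTGTGAaattgatttca
Of 4294 tested genes with 3′ UTRs between 141 and 1050 bases, 6.1% held a miR-23 match, 8.8% a miR-24 match and 7.3% a miR-27 match, so each kind of match was absent from most genes of this length. The AU-rich pentamer ATTTA, a letter pattern found in many short-lived cytokine messages, occurred 9 times in Ccl20, 5 times in Ccl3, 2 times in Ccl4, once in Xcl1 and not in Ccl1 or Ccl5. Of the 4294 genes, 49.9% held at least 1 and 2.0% held 5 or more. The densest stretches in Ccl3 (bases 139 to 168) and Ccl20 (bases 939 to 968) are shown with the pentamer in capitals.
Ccl3 stretch: gactcttcacttgaaattttATTTAATTTA
Ccl20 stretch: tgtaaagatATTTAatgttctgtttATTTA

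Promoter sequences are shown as 250 bases before to 50 after the RefSeq start (GRCm38.p6). They are those of Xcl1 and Ccl1, whose levels moved together across libraries, and of Ccl20, whose order of genotypes differed from theirs. The promoters lie at chr1:164935473-164935772 on the minus strand (Xcl1), chr11:82179763-82180062 on the minus strand (Ccl1) and chr1:83116516-83116815 on the plus strand (Ccl20). Capitals mark matches, on either strand, to the NF-kB pattern (GGGA and CC with any 4 bases between), the T-box pattern TCACACC and the AP-1 pattern TGANTCA.
Xcl1 promoter: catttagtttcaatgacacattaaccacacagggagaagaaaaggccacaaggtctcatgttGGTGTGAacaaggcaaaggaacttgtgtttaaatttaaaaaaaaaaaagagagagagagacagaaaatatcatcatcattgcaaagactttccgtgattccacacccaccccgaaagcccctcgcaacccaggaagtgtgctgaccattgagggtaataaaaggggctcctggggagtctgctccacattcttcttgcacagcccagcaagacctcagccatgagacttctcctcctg
Ccl1 promoter: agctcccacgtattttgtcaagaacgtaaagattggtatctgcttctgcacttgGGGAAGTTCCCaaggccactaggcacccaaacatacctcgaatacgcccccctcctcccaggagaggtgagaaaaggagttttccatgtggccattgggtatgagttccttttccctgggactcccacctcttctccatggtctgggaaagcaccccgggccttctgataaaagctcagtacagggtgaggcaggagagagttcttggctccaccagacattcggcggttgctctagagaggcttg
Ccl20 promoter: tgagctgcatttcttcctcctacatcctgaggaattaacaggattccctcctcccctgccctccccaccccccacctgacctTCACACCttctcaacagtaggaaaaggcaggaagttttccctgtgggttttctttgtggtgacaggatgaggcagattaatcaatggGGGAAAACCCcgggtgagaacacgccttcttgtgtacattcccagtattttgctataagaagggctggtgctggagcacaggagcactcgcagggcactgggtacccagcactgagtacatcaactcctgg
Xcl1 held a T-box match at -188 to -182. Ccl1 held an NF-kB match at -196 to -187 that overlaps its own reverse-strand match at -195 to -186. Ccl20 held an NF-kB match at -81 to -72 and a T-box match at -168 to -162, so the pair of genes that moved together shared none of these patterns. Ccl3 held none of the patterns, and none of the 4 promoters in the table held an AP-1 match. Over 27025 promoters of the same length, 20.5% held the NF-kB pattern, 4.0% the T-box pattern and 7.9% the AP-1 pattern.

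The depth, estimated from the steps between low RPKM values, was 20.71 to 31.75 megareads per library. The precursor entries were high where the labels name their overexpression: Mir23a stood at 31030 to 38280 RPKM in miR-23 Tg and 11690 to 22900 in cluster Tg, against 0 to 155.0 in WT. Mir24-2 stood at 7999 to 22320 RPKM in miR-24 Tg and 6052 to 7943 in cluster Tg, against 0 to 50.3 in WT, and Mir27a at 50010 to 79110 RPKM in miR-27 Tg and 13710 to 24080 in cluster Tg, against 0 to 346.7 in WT. In DKO, Mir23a and Mir27a were listed at 0 in every library, and Mir24-2 at 11.5 RPKM in library 2 and at 0 in the other 2. The Treg genes were present in each library, with Foxp3 between 196.6 and 347.6 RPKM. Library 1 of miR-24 Tg and library 3 of miR-27 Tg stood apart by their B cell and myeloid markers, with summed B cell markers of 935.9 and 869.3 RPKM, against 137.4 to 206.2 in WT, and summed myeloid markers of 211.8 and 117.1 RPKM, against 24.07 to 29.34 in WT. Several fold changes of the chemokine ligand genes, and counts of called genes, are given with and without these libraries. The correlations, the counts within marker and other gene lists, and the tests of single genes other than the ligands named above are given only with them. How far those results rest on these libraries was not tested.

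Xcl1 (chr1:164931644-164935527, minus strand, GRCm38) encodes lymphotactin, the ligand of the dendritic cell receptor XCR1. It was measured at 10.4, 13.0 and 10.8 RPKM in miR-23 Tg cells, 38.5, 56.5 and 44.6 RPKM in miR-24 Tg cells, 9.69, 7.26 and 17.3 RPKM in miR-27 Tg cells, 42.4, 27.3 and 11.8 RPKM in cluster Tg cells, 4.17, 8.39 and 5.22 in DKO and 8.13, 9.09 and 4.15 in WT, in the order of libraries 1, 2 and 3. All 3 miR-24 Tg libraries were high, cluster Tg was spread 3.59-fold between its highest and lowest library, and DKO overlapped WT. Mean Xcl1 was 46.5 ± 9.15 RPKM in miR-24 Tg and 7.12 ± 2.62 RPKM in WT (SD, n = 3 each), a log2 fold change of 2.68 (SE 0.42). In order of the mean, miR-24 Tg was followed by cluster Tg, miR-27 Tg, miR-23 Tg, WT and DKO, and every pair of neighbours in that order overlapped except miR-23 Tg and WT, where all miR-23 Tg libraries were higher.

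Ccl1 (chr11:82176657-82179812, minus strand) encodes the ligand of CCR8, a receptor carried by Treg and Th2 cells. It was measured at 8.50, 8.52 and 8.73 RPKM in miR-23 Tg cells, 20.8, 26.2 and 40.8 RPKM in miR-24 Tg cells, 13.3, 8.91 and 18.1 RPKM in miR-27 Tg cells, 37.4, 23.1 and 14.4 RPKM in cluster Tg cells, 3.79, 8.21 and 5.28 in DKO and 4.36, 5.35 and 4.01 in WT. The 4 overexpressing genotypes were above every DKO and WT library, and the 3 miR-23 Tg libraries were within 1.03-fold of each other. Mean Ccl1 was 29.3 ± 10.4 RPKM in miR-24 Tg and 4.58 ± 0.696 RPKM in WT (SD, n = 3 each), a log2 fold change of 2.50 (SE 0.34). The miR-27 Tg mean was 13.4 ± 4.61 RPKM, a log2 fold change of 1.41 over WT. The order of the means was miR-24 Tg, cluster Tg, miR-27 Tg, miR-23 Tg, DKO and WT. Among these neighbours only miR-27 Tg and miR-23 Tg, and miR-23 Tg and DKO, did not overlap.

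Ccl5 (chr11:83525778-83530518, minus strand), which encodes RANTES, an attractant of T cells and monocytes, had the highest RPKM of the 6 genes, with a median of 32.6 over the 18 libraries, above 74.5% of the tested genes. It was measured at 34.7, 35.9 and 24.7 RPKM in miR-23 Tg cells, 95.9, 78.2 and 64.5 RPKM in miR-24 Tg cells, 42.5, 26.4 and 49.5 RPKM in miR-27 Tg cells, 87.9, 69.2 and 30.5 RPKM in cluster Tg cells, 21.0, 24.2 and 17.9 in DKO and 23.7, 15.3 and 13.2 in WT. Every library of the 4 overexpressing genotypes was above every DKO and WT library, and only the DKO and WT ranges overlapped at the low end. Mean Ccl5 was 79.6 ± 15.7 RPKM in miR-24 Tg and 17.4 ± 5.52 RPKM in WT (SD, n = 3 each), a log2 fold change of 2.19 (SE 0.34). The miR-27 Tg mean was 39.5 ± 11.9 RPKM, a log2 fold change of 1.16. The means ran in the order miR-24 Tg, cluster Tg, miR-27 Tg, miR-23 Tg, DKO and WT, with overlap between neighbours except between miR-23 Tg and DKO.

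Ccl3 (chr11:83647844-83649355, minus strand) and Ccl4 (chr11:83662584-83664683, plus strand) are neighbours that encode MIP-1 alpha and MIP-1 beta, attractants of leukocytes made by activated T cells, NK cells and macrophages. Ccl3 was measured at 2.80, 3.21 and 1.23 RPKM in miR-23 Tg cells, 10.1, 2.74 and 1.63 RPKM in miR-24 Tg cells, 0.965, 1.58 and 3.06 RPKM in miR-27 Tg cells, 3.79, 1.53 and 0.869 RPKM in cluster Tg cells, 0.688, 0.854 and 0.226 in DKO and 0.399, 0.313 and 0.344 in WT. The miR-24 Tg value rested on library 1, which was 6.18 times library 3, and the WT values corresponded to about 10, 6 and 8 reads. Mean Ccl3 was 4.81 ± 4.58 RPKM in miR-24 Tg and 0.352 ± 0.0436 RPKM in WT (SD, n = 3 each), a log2 fold change of 2.30 (SE 0.55). Without library 1 of miR-24 Tg it was 1.63. All fold changes here are on log2(RPKM + 0.5), which understates the change of a gene as low as Ccl3.

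Ccl4 was measured at 3.07, 1.66 and 1.44 RPKM in miR-23 Tg cells, 8.11, 3.52 and 3.77 RPKM in miR-24 Tg cells, 1.31, 1.08 and 3.47 RPKM in miR-27 Tg cells, 3.53, 1.96 and 0.877 RPKM in cluster Tg cells, 1.33, 2.97 and 1.45 in DKO and 1.28, 1.21 and 1.01 in WT. Library 1 of miR-24 Tg was again the highest of the 18, the other 2 miR-24 Tg libraries were above every miR-27 Tg, DKO and WT library, and the cluster Tg range enclosed the WT range. The log2 fold change in miR-24 Tg over WT was 1.67 (SE 0.44), and 1.32 without library 1. Ccl4, the one gene with a miR-27 match in its 3′ UTR, had a mean of 1.95 ± 1.32 RPKM in miR-27 Tg and 1.17 ± 0.140 RPKM in WT (SD, n = 3 each). The log2 fold change was 0.43, with a 95% interval of -0.50 to 1.37, and 0.02 without library 3 of miR-27 Tg. The ratio of Ccl3 to Ccl4 RPKM was 0.432 to 1.93 in the 12 libraries of the 4 overexpressing genotypes and 0.156 to 0.519 in DKO, against 0.259 to 0.34 in WT.

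Ccl20 (chr1:83116774-83119167, plus strand) encodes the ligand of CCR6 and had an order of its own. It was measured at 1.38, 2.30 and 2.79 RPKM in miR-23 Tg cells, 2.80, 2.70 and 2.62 RPKM in miR-24 Tg cells, 8.89, 10.7 and 15.7 RPKM in miR-27 Tg cells, 6.98, 5.45 and 5.55 RPKM in cluster Tg cells, 1.69, 1.38 and 1.83 in DKO and 1.96, 2.40 and 0.870 in WT. The miR-27 Tg libraries were above all others, the cluster Tg libraries came between them and the rest, and miR-23 Tg, DKO and WT overlapped. Mean Ccl20 was 11.8 ± 3.53 RPKM in miR-27 Tg and 1.74 ± 0.788 RPKM in WT (SD, n = 3 each), a log2 fold change of 2.48 (SE 0.27). In miR-24 Tg, where the 3 libraries were within 1.07-fold of each other, the log2 fold change over WT was 0.58. The highest Ccl20 value of miR-27 Tg came from library 3, which had the lowest Mir27a precursor value of that genotype (50010 RPKM). Library 3 also stood apart by its B cell and myeloid markers and was the highest of miR-27 Tg for the other ligand genes, so nothing is read from this order.

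**Figure D1:**
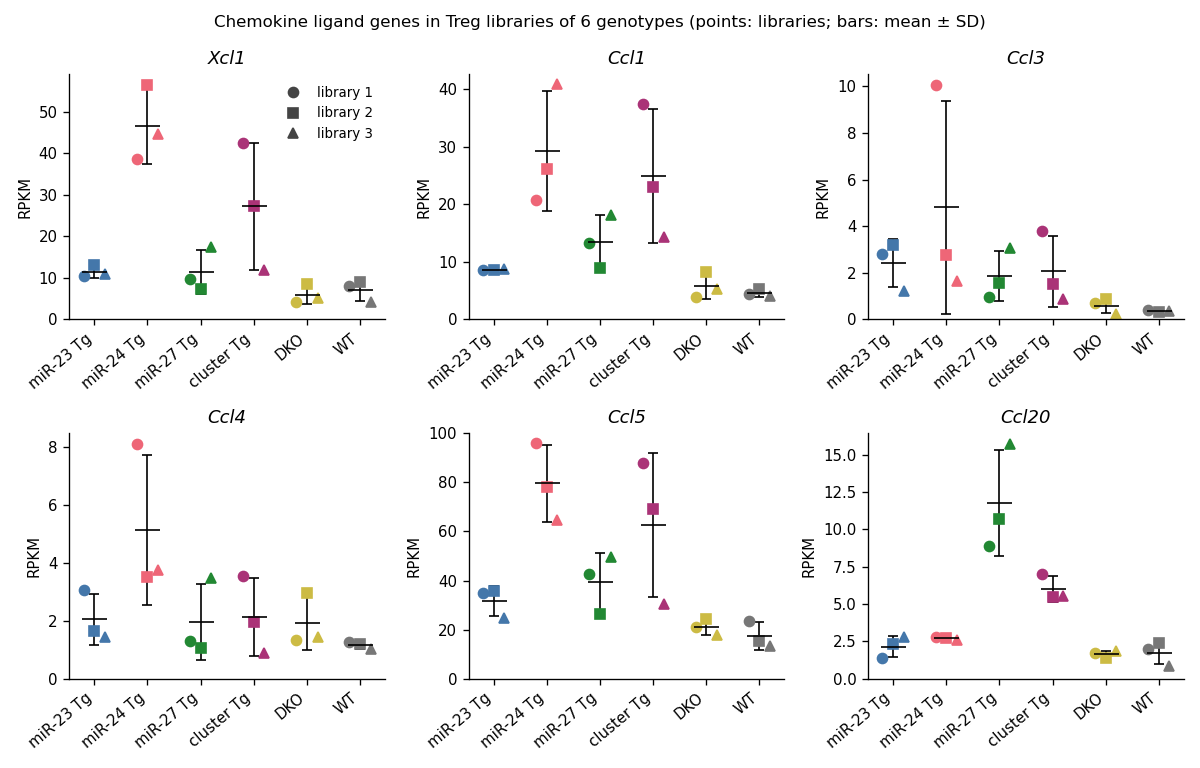
Level of each gene (RPKM, linear axis from 0, each panel with its own scale) by genotype, with points for libraries 1 to 3 and bars for mean ± SD. Xcl1, Ccl1 and Ccl5 are highest in miR-24 Tg and cluster Tg, while Ccl20 is highest in miR-27 Tg, at 8.89 to 15.7 RPKM.

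In cluster Tg cells against WT, Xcl1, Ccl1, Ccl5 and Ccl20 rose and Ccl3 and Ccl4 did not pass the test. Ccl1 averaged 24.9 ± 11.6 RPKM in cluster Tg and 4.58 ± 0.696 RPKM in WT (SD, n = 3 each), 4.69-fold higher (log2 2.23, SE 0.34, limma adjusted p = 0.00054). Xcl1 averaged 27.2 ± 15.3 RPKM in cluster Tg and was 3.37-fold higher (log2 1.75, SE 0.42, limma adjusted p = 0.00816). Ccl5 averaged 62.5 ± 29.3 RPKM and was 3.32-fold higher (log2 1.73, limma adjusted p = 0.00261), and Ccl20 averaged 5.99 ± 0.854 RPKM and was 3.02-fold higher (log2 1.60, limma adjusted p = 0.000913). Ccl3 had a log2 fold change of 1.42 with a 95% interval of 0.25 to 2.60 (limma adjusted p = 0.0733), and Ccl4 one of 0.53 with an interval of -0.41 to 1.46 (limma adjusted p = 0.416). These 4 of 6 stand beside 24.4% of all tested genes called in the same comparison. The choice of the genes used the same WT libraries, which can favour this count and the values that follow. Over the 6 genes, Ccl3 included, the median log2 fold change was 1.66, against 0.02 over all tested genes. In Xcl1, Ccl1, Ccl5 and Ccl20 every cluster Tg library was above every WT library, as in 22.6% of the tested genes. Ccl3 was too, but is not counted, since its passing the filter already required a difference. The Xcl1 call was lost without library 1 of cluster Tg (log2 1.35, limma adjusted p = 0.0503), and with only the 2 compared groups in the model (0.0652).

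Cluster Tg against DKO sets gain of the clusters against their loss and uses no WT library. The same 4 genes, Xcl1, Ccl1, Ccl5 and Ccl20, were higher in cluster Tg, with 26.7% of all tested genes called. The log2 fold changes were 1.98 for Xcl1 (SE 0.42, limma adjusted p = 0.00339), 1.98 for Ccl1 (SE 0.34, limma adjusted p = 0.000915), 1.43 for Ccl5 (SE 0.34, limma adjusted p = 0.0073) and 1.60 for Ccl20 (SE 0.27, limma adjusted p = 0.000698). In these 4 genes the lowest cluster Tg library was above the highest DKO library. Ccl3 was too, narrowly (0.869 RPKM against 0.854 RPKM). The share of all tested genes with this pattern was not counted for this comparison, so nothing is read from it. Ccl4 averaged 2.12 ± 1.34 RPKM in cluster Tg and 1.92 ± 0.913 RPKM in DKO (SD, n = 3 each), and its log2 difference of 0.05 had a 95% interval of -0.89 to 0.98 (limma adjusted p = 0.949). Ccl3 had a log2 difference of 1.12 with an interval of -0.06 to 2.29 (limma adjusted p = 0.145), and its passing the filter already required a difference. The Ccl5 call was lost with only the 2 compared groups in the model (limma adjusted p = 0.0627).

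In DKO cells against WT none of the 6 genes passed the test, and 0.0174% of all tested genes (2 of 11520) were called. At an unadjusted limma p under 0.05 the comparison held 254 genes, none of them among the 6. The log2 fold changes were -0.23 for Xcl1, 0.25 for Ccl1, 0.31 for Ccl3, 0.48 for Ccl4, 0.30 for Ccl5 and -0.01 for Ccl20, each with a limma adjusted p of 1.0. The 95% intervals bound what these libraries could have missed. For Xcl1 the interval was -1.13 to 0.66, for Ccl5 -0.43 to 1.03 and for Ccl20 -0.58 to 0.56. Ccl4 was the 1 gene of the 6 in which every DKO library was above every WT library, as in 3.31% of the tested genes, at 1.33, 2.97 and 1.45 RPKM in DKO and 1.28, 1.21 and 1.01 RPKM in WT.

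In miR-23 Tg cells against WT none of the 6 genes passed the test either, with 0.356% of all tested genes called (41 of 11520) and 1567 genes at an unadjusted limma p under 0.05, which included Ccl1, Ccl3 and Ccl5. In Xcl1, Ccl1, Ccl4 and Ccl5 every miR-23 Tg library was above every WT library, as in 14.1% of the tested genes. Ccl3, also above, is again not counted. The part of the WT libraries in the choice of the genes can favour such a pattern. Ccl3 averaged 2.41 ± 1.04 RPKM in miR-23 Tg and 0.352 ± 0.0436 RPKM in WT (SD, n = 3 each), a log2 fold change of 1.70 with a 95% interval of 0.53 to 2.87 (limma adjusted p = 0.184). Ccl5 averaged 31.8 ± 6.16 RPKM in miR-23 Tg, a log2 fold change of 0.88 with an interval of 0.14 to 1.61 (limma adjusted p = 0.273). Ccl1 had a log2 fold change of 0.85 (interval 0.11 to 1.58, limma adjusted p = 0.293), and was called with only the 2 compared groups in the model (0.0401, with 0.0401 to 0.583 over the alternatives). Xcl1, Ccl4 and Ccl20 had log2 fold changes of 0.70, 0.57 and 0.27, with limma adjusted p-values of 0.494, 0.609 and 0.703.

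For miR-24 Tg and miR-27 Tg, whose values took part in the choice of the genes, the counts are a description from which nothing is read, since the choice favoured them. In miR-24 Tg against WT, 5 of the 6 genes, all but Ccl20, were called higher, beside 8.98% of all tested genes, and the count was 3 without library 1 of miR-24 Tg, when Ccl3 and Ccl4 were no longer called. It was also 3 without any 1 of the WT libraries. In miR-27 Tg against WT, Ccl1, Ccl5 and Ccl20 were called higher, beside 28.6% of all tested genes, and without library 3 of miR-27 Tg the log2 fold changes were 1.17 for Ccl1, 0.97 for Ccl5 and 2.26 for Ccl20, and Ccl5 was no longer called. The Ccl5 call was also lost without library 1 of miR-27 Tg, WT library 2 or WT library 3. The 5 comparisons with WT share the 3 WT libraries, so a low or high WT value moves all of them together. These WT libraries also took part in the choice of the genes.

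**Figure D2:**
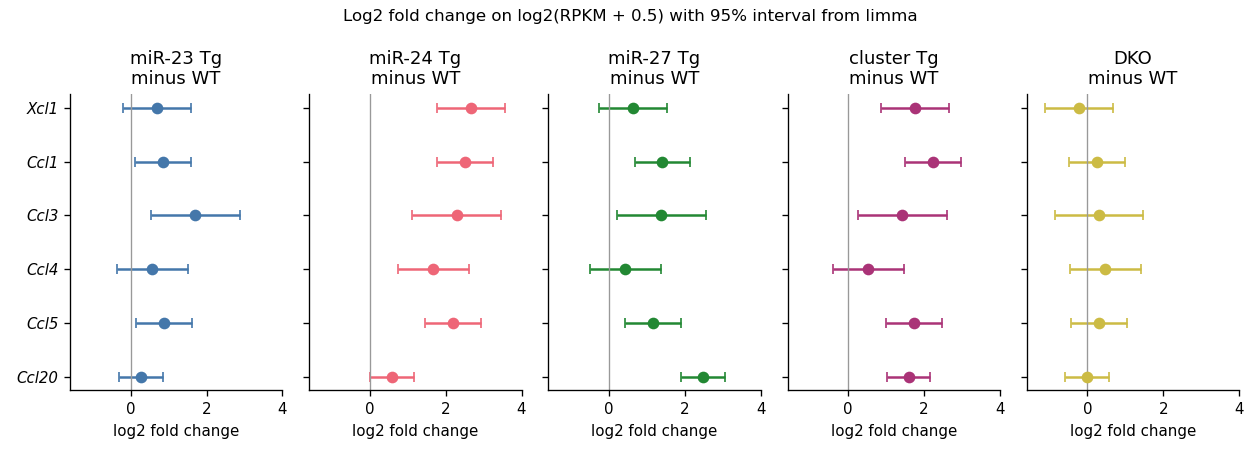
Log2 fold change of each gene over WT on log2(RPKM + 0.5) for the 5 genotypes, with points for the estimate and bars for the 95% interval from limma. The miR-24 Tg and cluster Tg points for Xcl1, Ccl1 and Ccl5 lie between 1.73 and 2.68, the DKO points lie between -0.23 and 0.48, and Ccl20 is largest in miR-27 Tg (2.48).

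Set directly against each other, again as a description, miR-27 Tg was below miR-24 Tg in Xcl1 (log2 -2.05), Ccl1 (-1.09), Ccl5 (-1.03) and Ccl4 (-1.24), and above it in Ccl20 (1.90), with 4 of the 6 genes called (Xcl1, Ccl1, Ccl5 and Ccl20) beside 24% of all tested genes, a count that the choice of the genes from these 2 genotypes favoured. The Xcl1 ranges, 7.26 to 17.3 RPKM in miR-27 Tg and 38.5 to 56.5 RPKM in miR-24 Tg, did not overlap. Cluster Tg against miR-24 Tg had 1 gene called, Ccl20, beside 11.5% of all tested genes. That call was lost with only the 2 compared groups, without library 1 of miR-24 Tg and library 3 of miR-27 Tg together, and without any 1 miR-24 Tg library or library 1 or 2 of cluster Tg. Ccl20 averaged 5.99 ± 0.854 RPKM in cluster Tg and 2.71 ± 0.0914 RPKM in miR-24 Tg (SD, n = 3 each), a log2 difference of 1.01. The 95% intervals of the same difference were -1.82 to -0.03 for Xcl1, -1.01 to 0.46 for Ccl1 and -1.19 to 0.28 for Ccl5. Cluster Tg against miR-27 Tg had none of the 6 called by limma, beside 6.85% of all tested genes and 2777 genes at an unadjusted p under 0.05. Ccl20 was lower in each cluster Tg library (5.45 to 6.98 RPKM) than in each miR-27 Tg library (8.89 to 15.7 RPKM), a log2 difference of -0.89 with an interval of -1.46 to -0.32. Precursor values were also lower in cluster Tg than in the single transgenics, as given above for Mir24-2 and Mir27a, and the part of this in the ligand levels was not tested.

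The libraries of a genotype differed among themselves in a shared way. In cluster Tg the order of the libraries was 1, 2, 3 from high to low for Xcl1, Ccl1, Ccl3, Ccl4 and Ccl5. It was the same for Mir23a, Mir27a and Mir24-2, while Ccl20 was highest in library 1 and lowest in library 2. Tnf, Maf and Cd4 ran in the order 1, 2, 3 there as well, and Foxp3 and Ccr8 did not. In miR-27 Tg, library 3 was the highest for all 6 genes. In miR-24 Tg the order split the genes, with library 1 highest for Ccl3, Ccl4, Ccl5 and Ccl20 but lowest for Xcl1 and Ccl1. Mir24-2 was lowest in library 1 of miR-24 Tg (7999 RPKM) and highest in library 2 (22320 RPKM), as Xcl1 was. Over the deviations of the 18 libraries from their genotype means, Xcl1 and Ccl1 had a Pearson r of 0.828, Ccl3 and Ccl4 one of 0.808, Ccl4 and Ccl5 one of 0.773 and Xcl1 and Ccl5 one of 0.771, against 0.129 for Ccl1 and Ccl3. Ccl20 had 0.154 to 0.259 with Ccl1, Ccl3, Ccl4 and Ccl5 and 0.516 with Xcl1. These are descriptions over libraries that share their depth and cell mixture across all genes.

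**Figure D3:**
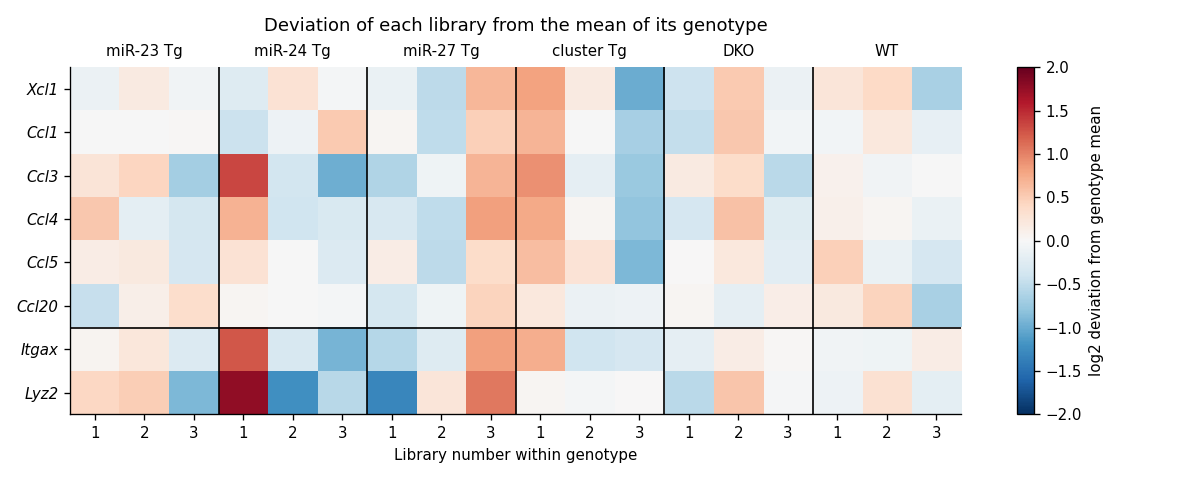
Deviation of each library from the mean of its genotype on log2(RPKM + 0.5), with genes in rows, libraries in columns and colour for the size (red above, blue below the mean). Ccl3, Ccl4, Ccl5 and Ccl20 share their highest library with Itgax and Lyz2 in miR-24 Tg (library 1) and in miR-27 Tg (library 3). Xcl1 and Ccl1 are below their mean in library 1 of miR-24 Tg but are also highest in library 3 of miR-27 Tg.

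Together the 6 genes held most of the chemokine ligand RPKM of these cells. Their choice by high levels in miR-24 Tg and miR-27 Tg favoured their shares in those genotypes. Of the RPKM summed over 40 ligand genes in the table, they held 60.8 to 66.7% in miR-23 Tg, 82.4 to 83.6% in miR-24 Tg, 59.4 to 74.7% in miR-27 Tg, 66.3 to 70.2% in cluster Tg and 57.9 to 63.2% in DKO, against 56.9 to 61.8% in WT. The sum itself was 188.8 to 212.6 RPKM in miR-24 Tg and 91.08 to 273.3 RPKM in cluster Tg, against 39.16 to 69.93 RPKM in WT. Ccl5 alone held 28.1 to 45.1% of the sum in each library. The ratio of Ccl20 to Ccl5 RPKM was 0.209 to 0.406 in miR-27 Tg and 0.0292 to 0.0406 in miR-24 Tg, against 0.066 to 0.157 in WT.

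**Figure D4:**
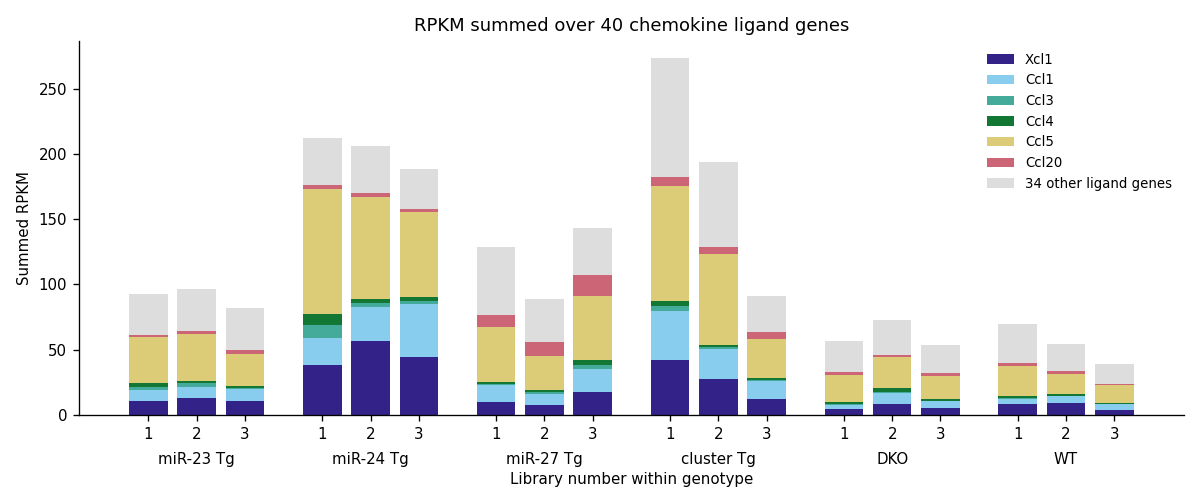
RPKM summed over 40 chemokine ligand genes for each library (stacked bars from 0, linear axis), split into the 6 genes and the 34 others. The sum is 188.8 to 212.6 RPKM in miR-24 Tg, spans 91.08 to 273.3 RPKM in cluster Tg and is 39.16 to 69.93 RPKM in WT, with Ccl5 the largest of the 6 shares in each library.

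Of the other 34 ligand genes, 5 passed the filter (Ccl25, Ccl27a, Cxcl2, Cxcl10 and Cx3cl1), and only Cxcl10, the interferon-induced ligand of CXCR3, was called in a comparison with WT. Cxcl10 was measured at 79.7, 52.2 and 17.9 RPKM in cluster Tg and at 17.2, 10.7 and 5.42 RPKM in WT, 4.05-fold higher (limma adjusted p = 0.00484), and the libraries of cluster Tg ran in the same order as for Xcl1, Ccl1 and Ccl5. It was also called in miR-27 Tg (2.68-fold higher, limma adjusted p = 0.0263) and in no other genotype against WT. Ccl6 and Ccl9, which lie between Ccl5 and Ccl3 and are known from myeloid cells, did not pass the filter. Ccl6 was at 4.29 RPKM in library 1 of miR-24 Tg, 0.29 and 0.03 in the other miR-24 Tg libraries, and 0 to 0.12 in WT.

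Of 7 receptor genes of these ligands, 4 were tested. Ccr3, a receptor of CCL5, rose in miR-24 Tg, miR-27 Tg and cluster Tg, and did not pass in miR-23 Tg or DKO. Ccr3 averaged 3.88 ± 1.86 RPKM in cluster Tg and 0.51 ± 0.12 RPKM in WT (SD, n = 3 each; limma adjusted p = 0.000465). Ccr1 was called in miR-27 Tg only, at 1.44 ± 0.84 RPKM in miR-27 Tg and 0.22 ± 0.11 RPKM in WT (limma adjusted p = 0.00552), without a test of the difference from the other genotypes. Neither Ccr3 nor Ccr1 reached 1 RPKM in any miR-23 Tg, DKO or WT library, so both passed the filter only through genotypes in which they were high, and their place among the tested genes already required a difference. The receptors of CCL1 and CCL20 were abundant and did not pass against WT. Ccr8 averaged 44.4 ± 16.6 RPKM in cluster Tg and 37.9 ± 4.25 RPKM in WT (limma adjusted p = 0.692), and Ccr6 averaged 61.1 ± 7.31 RPKM in cluster Tg and 44.3 ± 7.62 RPKM in WT (limma adjusted p = 0.0809). Xcr1, Ackr1 and Ackr2 did not pass the filter.

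Of 25 transcription factor genes known to act on chemokine or effector genes, none was called in miR-23 Tg, 3 rose in miR-24 Tg, 9 rose and 1 fell in miR-27 Tg, 5 rose and 1 fell in cluster Tg, and none was called in DKO. Over all tested genes the shares called were 0.356% for miR-23 Tg, 8.98% for miR-24 Tg, 28.6% for miR-27 Tg, 24.4% for cluster Tg and 0.0174% for DKO, and the cluster Tg count of 6 in 25 was near its share. The median log2 fold change of the 25 was 0.34 in cluster Tg, 0.19 in miR-27 Tg and 0.05 in miR-24 Tg, against 0.02, 0.01 and 0.01 over all tested genes. Tbx21, which encodes the Th1 factor T-bet, was measured at 12.7, 7.67 and 5.17 RPKM in cluster Tg and at 2.87, 2.97 and 2.90 RPKM in WT (log2 1.32, limma adjusted p = 0.00297), again with library 1 highest. Maf, a factor of effector Treg cells, had a log2 fold change of 0.84 in cluster Tg (limma adjusted p = 0.000811), and Ahr, the aryl hydrocarbon receptor, one of 0.93 (limma adjusted p = 0.00927). Jun, an AP-1 subunit, fell by 1.79 on the log2 scale in miR-27 Tg (limma adjusted p = 0.0285) and did not pass in the other genotypes.

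Counts of other activation genes are read against the same shares. Of 20 small secreted effector genes 18 were tested, and 6 rose in miR-27 Tg cells, 5 in cluster Tg cells, 2 in miR-24 Tg cells, 1 in miR-23 Tg cells and none in DKO cells, with no falls, which for miR-27 Tg and cluster Tg is near the share over all tested genes. Of 20 immediate-early genes, all tested, 1 fell in miR-24 Tg, 2 rose and 3 fell in miR-27 Tg, 2 rose and 1 fell in cluster Tg, and none was called in miR-23 Tg or DKO. Of 15 cell cycle genes, all 15 rose in miR-27 Tg and 10 rose in cluster Tg. None was called in the other 3 genotypes. Their median log2 fold changes over WT were 2.31 (miR-27 Tg), 1.41 (cluster Tg), 1.4 (miR-23 Tg), 0.737 (miR-24 Tg) and -0.107 (DKO). The lack of calls in miR-24 Tg or miR-23 Tg is therefore not read as a lack of change. A link between the cell cycle genes and the ligand levels was not tested. Of 8 Treg markers 1 rose in miR-27 Tg cells and 1 in cluster Tg cells, and none was called in the other 3 genotypes.

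The tested genes most alike each of the 6, by Pearson r of log2(RPKM + 0.5) over the 18 libraries, differed between the ligands. For Xcl1 they were Mcoln2 (r = 0.909), Abcb1b (0.908) and Snx9 (0.899), and for Ccl1 Serpina3g (0.911), Appl2 (0.911) and Anxa7 (0.906). For Ccl5 they were Serpina3g (0.935), a serine protease inhibitor gene, Hgsnat (0.913) and Cldn25 (0.912). For Ccl4 they were Ctsd (0.8), Dse (0.791) and Prosc (0.781), and for Ccl20 Cep89 (0.941), Nudt4 (0.938) and Fads2 (0.936), a fatty acid desaturase gene at 1.58, 5.02 and 6.58 RPKM in miR-27 Tg, against 0.02, 0.25 and 0.15 RPKM in WT. For Ccl3 they were Itgax (0.907), the gene of the dendritic cell integrin CD11c, Mctp2 (0.897) and Lrrk2 (0.886). Over deviations from the genotype means, Itgax, named here for its likeness to Ccl3, had r = 0.911 with Ccl3, 0.763 with Ccl4, 0.506 with Ccl5, 0.317 with Xcl1, 0.248 with Ccl20 and 0.105 with Ccl1.

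**Figure D5:**
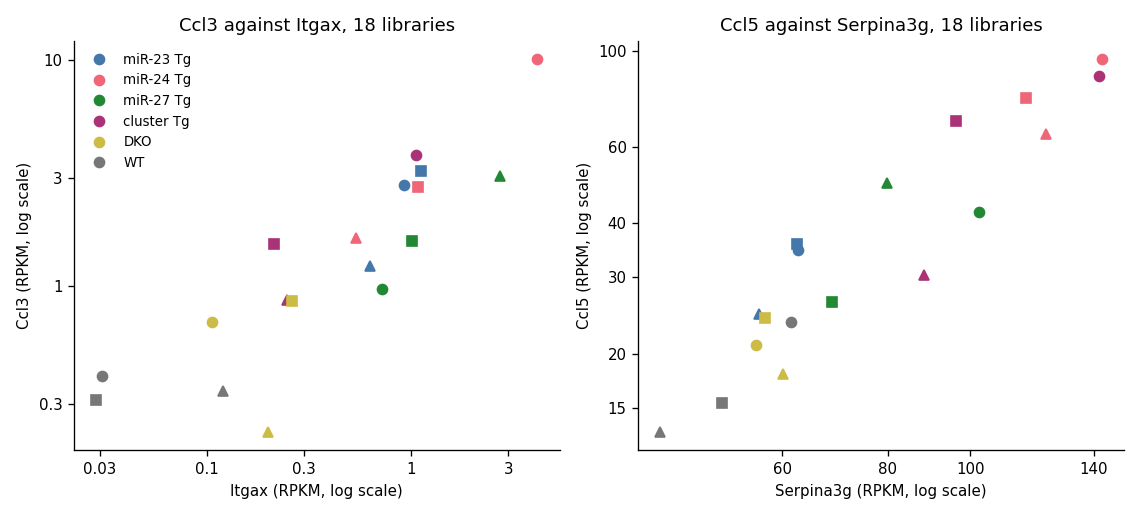
Ccl3 against Itgax (left) and Ccl5 against Serpina3g (right), both axes in RPKM on log scales, with 1 point per library (circle, square and triangle for libraries 1, 2 and 3) coloured by genotype. Library 1 of miR-24 Tg is highest in both Ccl3 (10.1 RPKM) and Itgax (4.16 RPKM), and Ccl5 and Serpina3g have r = 0.935 over the 18 libraries, in which the differences between genotypes take part.

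Markers of other cells, most of which make some of these ligands, are also read against those shares. Of 16 myeloid markers 11 were tested, and 2 rose in miR-24 Tg, 5 in miR-27 Tg and none in miR-23 Tg, cluster Tg or DKO, with summed levels of 48.76 to 78.27 RPKM in miR-23 Tg, 34.91 to 211.8 in miR-24 Tg, 53.39 to 117.1 in miR-27 Tg, 38.42 to 49.7 in cluster Tg and 24.37 to 37.71 in DKO, against 24.07 to 29.34 in WT. S100a8 and S100a9 were listed at 0 in every DKO library. Of 17 B cell markers 16 were tested, and 7 rose in miR-24 Tg, 15 in miR-27 Tg and none in the other 3 genotypes. Their sums were 273.8 to 412.9 RPKM for miR-23 Tg, 241.2 to 935.9 for miR-24 Tg, 434.2 to 869.3 for miR-27 Tg, 266.8 to 375.1 for cluster Tg and 156.9 to 267.5 for DKO, against 137.4 to 206.2 for WT. Of 13 NK cell markers 8 were tested, with none called in miR-24 Tg, 4 higher and 1 lower in miR-27 Tg, none higher and 1 lower in cluster Tg and none in miR-23 Tg or DKO. Their summed levels were 24.11 to 30.46 RPKM in miR-23 Tg, 20.16 to 45.64 in miR-24 Tg, 28.07 to 65.61 in miR-27 Tg, 20.88 to 41.47 in cluster Tg and 17.2 to 33.11 in DKO, against 15.82 to 22.02 in WT, where Klra3, Klra4, Klra7 and Klra8 were listed at 0. Of 6 CD8 T cell markers, all tested, 1 rose in miR-24 Tg cells, 2 in miR-27 Tg cells and 2 in cluster Tg cells (the last 2 counts near the shares over all tested genes), with none called in miR-23 Tg or DKO. Every library of the other 5 genotypes had a higher sum of CD8 T cell markers than every WT library: 41.28 to 43.09 RPKM for miR-23 Tg, 49.28 to 63.07 for miR-24 Tg, 41.18 to 62.94 for miR-27 Tg, 43.11 to 83.04 for cluster Tg and 41.02 to 57.26 for DKO, against 32.05 to 37.43 for WT.

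Library 3 of miR-24 Tg had summed NK cell markers of 20.16 RPKM, inside the WT range, and sums above every WT library for CD8 T cell markers (63.07 RPKM, the highest of its genotype), B cell markers (241.2) and myeloid markers (34.91). The same library had 44.6 RPKM of Xcl1, 40.8 of Ccl1 and 64.5 of Ccl5, all above every WT library. DKO libraries had summed CD8 T cell markers above every WT library, but the single markers were mixed. Gzmb, also listed among the effector genes, averaged 26.6 RPKM in DKO and 12.8 in WT, and Eomes, Gzmk and Crtam were also higher in DKO. Cd8a averaged 1.39 RPKM in DKO and 1.98 in WT, and Cd8b1 14.3 in DKO and 15.2 in WT. Xcl1 was at 4.17 to 8.39 RPKM in DKO, against 4.15 to 9.09 RPKM in WT. Without library 1 of miR-24 Tg and library 3 of miR-27 Tg together, the log2 fold changes in miR-24 Tg over WT were 2.80 for Xcl1, 2.72 for Ccl1 and 2.04 for Ccl5, and that of Ccl20 in miR-27 Tg was 2.26. The part of NK, CD8 T, gamma delta T, B or myeloid cells in the ligand levels was not tested. Of 7 gamma delta T cell markers 2 had values and 1 was tested, Blk, which is also among the B cell markers. In sorted bulk RNA a change in the number of ligand-making cells and a change in RNA per cell cannot be told apart.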

How the data were processed

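RNA from sorted Treg cells was sequenced in 18 libraries (6 genotypes, 3 each). The deposited values are RPKM per gene and library, and the submitters' processing notes name STAR 2.2.0c, HOMER and the build mm10 (GRCm38) without saying how the authors combined them. Of 23953 entries, 4 with a repeated symbol were left out. The 11520 genes that reached 1 RPKM in 3 or more libraries were tested on log2(RPKM + 0.5) in R 4.3.3 with limma 3.58.1, in 1 model with a mean-variance trend over the 18 libraries (prior of 2.26 degrees of freedom). P-values were two-sided, adjusted by Benjamini-Hochberg over all tested genes within a comparison, and called under 0.05. The model was tested on simulated data. Other steps used Python 3.11.15, pandas 2.3.3 and matplotlib 3.10.9. The depth was estimated from low values of 369 single-transcript genes.

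The 6 genes, the gene lists and the tests were chosen with earlier results of these data known. Genes outside the 6 were named where called against WT (up to 4 per list by size of change), as receptors, or as the 3 most alike by Pearson r. Predicted, clone, small RNA and antigen receptor segment symbols were left out of the last of these. Some receptor and transcription factor genes are not reported here. Precursor entries, Ccl6, Ccl9 and Xcr1 were added after their values were seen. Replicate numbers were not used to pair the libraries in the main model. Alternatives were another pseudocount (0.1 or 1), median-of-ratios scaling, all genes without the filter, the replicate number as a block, a fit to the 2 compared groups alone, and leaving out libraries.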

Additional observations from a re-analysis of the deposited data

How the results depend on the processing

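Of 702 recomputed fold changes of the 6 genes, 635 kept their direction and their side of the threshold, 40 lost a call, 11 gained one and 16 changed sign. Counts of called genes among the 6 moved by over 1.5 times as follows, and the cause was not tested. With only the 2 compared groups the count was 1 for miR-23 Tg against WT (0 in the main model), 2 for miR-27 Tg against miR-24 Tg (4) and 0 for cluster Tg against miR-24 Tg (1). With no filter it was 2 for miR-27 Tg against miR-24 Tg, and with a pseudocount of 1 it was 1 for cluster Tg against miR-27 Tg (0). Without the 2 libraries high in B cell and myeloid markers together it was 3 for miR-24 Tg against WT (5) and 0 for cluster Tg against miR-24 Tg. Leaving out 1 library at a time gave 3 to 5 for miR-24 Tg against WT, 2 to 3 for miR-27 Tg against WT, 3 to 5 for cluster Tg against WT, 2 to 5 for miR-27 Tg against miR-24 Tg, 0 to 1 for cluster Tg against miR-24 Tg, 0 to 1 for cluster Tg against miR-27 Tg, 4 to 4 for cluster Tg against DKO, and 0 for miR-23 Tg and DKO against WT. Ccl3 in cluster Tg against WT passed with a pseudocount of 0.1 (limma adjusted p = 0.0384), without library 3 of cluster Tg (0.0411) and without the 2 marker-high libraries (0.0247), over a range of 0.0247 to 0.3. Nothing is read from these passes, since the filter on Ccl3 already required a difference and the choice of the genes used the WT libraries.

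With the replicate number as a block the counts among the 6 were those of the main model in all 9 comparisons (0, 5, 3 and 4 for miR-23, miR-24, miR-27 and cluster Tg against WT), but libraries sharing a number did not deviate together (45 pairs, median r 0.00397, from -0.167 to 0.188, 6 over 0.1), so the number is not a pairing.

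Changes of sign concerned small values, and are given as the range over single libraries left out. Ccl20 in miR-23 Tg against WT had log2 fold changes of -0.0482 (without WT library 3) to 0.504. In DKO against WT, Ccl20 had -0.329 to 0.212 (above 0 without DKO library 2, WT library 1 or WT library 2, and 0.0122 with a pseudocount of 0.1), and Ccl1 had -0.0181 (without DKO library 2) to 0.492. Ccl4 in cluster Tg against DKO had -0.329 to 0.446, below 0 without cluster Tg library 1, DKO library 1 or DKO library 3. Ccl1 in cluster Tg against miR-24 Tg had -0.612 to 0.0618 (without cluster Tg library 3). In cluster Tg against miR-27 Tg, Ccl3 had -0.41 to 0.414 and Ccl4 had -0.286 to 0.503, both below 0 without miR-27 Tg library 1, miR-27 Tg library 2 or cluster Tg library 1.

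Genes called over the whole table also moved. Against WT they were 41 in miR-23 Tg (2 to 5 without 1 library, 148 with only the 2 groups, 76 with the block, 26 with a pseudocount of 1), 1034 in miR-24 Tg (550 to 847 without 1 library, 555 with only the 2 groups, 580 without the marker-high libraries), 2806 in cluster Tg (1467 to 2892 without 1 library, 1789 with only the 2 groups) and 2 in DKO (1 to 3). They were 3072 for cluster Tg against DKO (1358 with only the 2 groups, 1820 to 3222 without 1 library), 2768 for miR-27 Tg against miR-24 Tg (955, and 1705 to 3064), 1330 for cluster Tg against miR-24 Tg (11, and 460 to 1941) and 789 for cluster Tg against miR-27 Tg (5, and 268 to 1219). Without the marker-high libraries the last 3 were 1381, 656 and 315. Low depth limits Ccl3 in WT, at 6 to 10 reads per library.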
